A study of Mus musculus with 3 samples.

Results

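The zinc finger genes of mouse chromosomes 7 and 13 were followed across 3 maps of DNA methylation in epididymal fat. They were taken as the protein-coding RefSeq genes on either chromosome whose symbol is Zfp followed by digits only. This rule found 122 genes, 90 on chromosome 7 and 32 on chromosome 13, of 21887 protein-coding gene records on 21 chromosomes. The symbol and chromosome alone set which genes belong, and no measured value entered this rule. The rule itself was chosen with earlier results of these data known. Protein domains were not checked. Methylation had been profiled by MeDIP-seq, in which an antibody pulls down methylated DNA fragments and the regions they pile up on are called as peaks. All animals were C57BL/6J males, the tissue was epididymal adipose tissue at an age of 16 weeks, and feeding lasted 10 weeks from an age of 6 weeks. The normal diet (ND) drew about 10% of its energy from fat and the high-fat diet (HFD) about 60%. The third group ate HFD chow and drank water with folic acid, 20 μg/mL (FAD). Each diet had 1 library, and the sources used here do not say whether it was made from 1 animal or from several. No difference between diets can therefore be set against a spread between animals, and no test is given. Wilson 95% intervals cover counting error over genes or peaks only.

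Most Zfp genes encode proteins with arrays of C2H2 zinc fingers, small zinc-bound folds that read DNA bases. Many also carry a KRAB domain, which recruits the corepressor Trim28 and through it the histone methyltransferase Setdb1, and a large share of such proteins silences transposable elements. The family grew by tandem duplication, so its genes lie in clusters of close relatives. The fingers of a KRAB zinc finger protein are usually encoded by a single large last coding exon. The repeated finger codons of such exons, and in human cells H3K9 trimethylation over them, are well known features of these clusters. Symbols of the Zfp form also cover unrelated proteins, for example Zfp36 (tristetraprolin), an RNA-binding protein that shortens the life of AU-rich mRNAs.

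The starts of these genes were almost free of peaks, as were those of genes in general, and 1 gene was marked at its start in every library. Start windows ran from 250 bases before to 50 bases after a transcript start, and were available from RefSeq for 109 of the 122 genes, as 126 windows. A peak overlapped a start window in 1 gene in ND (0.917%, interval 0.162 to 5.01%), 2 genes in HFD (1.83%, 0.505 to 6.44%) and 1 gene in FAD (0.917%, 0.162 to 5.01%). Over the 17492 protein-coding genes with a start window the shares were 2.90, 3.90 and 2.46%, each inside the interval of the Zfp genes. Zfp180 was the gene whose start window was marked in all 3 libraries, with scores of 233 in ND, 330.1 in HFD and 164 in FAD. Scores are the authors' own, their scale is not stated, and they are at least 50 in every list. Zfp111 was marked in HFD only, with a score of 73.7, in a window of 1 CpG. That peak, at chr7:24203200-24203582, reached only an edge of the window, which ran from 24203534 to 24203833. Another start window of Zfp111, with 5 CpG, lay 4517 bp from the nearest HFD peak. The Zfp180 promoter and peak-free promoters with the most CpG on each chromosome (on chromosome 7 Zfp592, with a window of Zfp629 tied) are shown because they give both sides of this contrast. They are the 250 bases before a start, 5′ to 3′ on the gene's strand, from RefSeq in GRCm38.p6, and capitals mark CpG dinucleotides.
Zfp180: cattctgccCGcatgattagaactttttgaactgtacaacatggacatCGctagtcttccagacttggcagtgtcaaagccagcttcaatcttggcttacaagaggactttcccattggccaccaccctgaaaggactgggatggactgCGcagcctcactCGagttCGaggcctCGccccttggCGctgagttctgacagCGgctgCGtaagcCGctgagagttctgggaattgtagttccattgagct
Zfp131: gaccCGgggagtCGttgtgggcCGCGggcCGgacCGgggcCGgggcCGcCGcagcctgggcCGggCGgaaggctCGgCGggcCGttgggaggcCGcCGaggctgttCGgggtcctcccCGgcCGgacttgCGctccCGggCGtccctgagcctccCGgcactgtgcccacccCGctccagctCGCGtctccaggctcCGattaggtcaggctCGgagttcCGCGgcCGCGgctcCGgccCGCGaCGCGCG
Zfp592: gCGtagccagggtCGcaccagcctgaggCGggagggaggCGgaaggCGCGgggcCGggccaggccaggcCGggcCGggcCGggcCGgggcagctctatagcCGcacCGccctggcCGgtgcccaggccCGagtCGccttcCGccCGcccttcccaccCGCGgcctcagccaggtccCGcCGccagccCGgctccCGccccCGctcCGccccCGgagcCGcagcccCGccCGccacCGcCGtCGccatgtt
The Zfp180 stretch lies at chr7:24081647-24081896 on the plus strand and holds 10 CpG. The Zfp131 stretch, of a BTB zinc finger gene, lies at chr13:119790459-119790708 on the minus strand with 38 CpG, and the Zfp592 stretch at chr7:80993434-80993683 on the plus strand with 33.

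The Zfp180 window had 12 CpG in its 300 bases, close to the median of 13, and those of Zfp131 and Zfp592 had 43 and 42. Windows with 10 or more CpG numbered 82 of 126 (65.1%), against 56.8% of the 21263 windows of all genes. In all, 124 of the 126 windows met no peak in any library, and the median distance from a window to the nearest peak of any library was 3824 bp. Of the 28 windows with 20 or more CpG, 0 had a peak, a count that allows a share of up to 10.7% (3 counts of the total), where all genes had 0.785% in ND, 0.942% in HFD and 0.759% in FAD. Of the 33 windows with 5 to 9 CpG, 0 had a peak as well (up to 9.09% allowed), a class in which 6.55, 9.05 and 5.31% of all windows did. Letters searched on both strands were GGGCGG, present in 46 windows (36.5%, all genes 46.2%), and CCAAT, in 54 (42.9%, all genes 38.2%). ACTACAATTCC, a stretch of the Zfp180 promoter read on the opposite strand and chosen after that sequence had been seen, was in 5 windows (3.97%), 1 of them its source. It was in 5 of 242 windows (2.07%) of Zfp genes on other chromosomes and in 90 windows over all genes (0.423%). These were windows of Zfp58, Zfp93, Zfp108, Zfp128 and Zfp180, of which Zfp180 alone had a peak at its start.

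The peak lists held 101532 regions in ND, 135124 in HFD and 95501 in FAD, and the median region was 507, 587 and 447 bp wide. The depth of reads behind them and the aligner are unknown. Where a list has no peak, depth or methylation may have been too low for a call, and other reasons were not tested. A missing peak is therefore not read as low methylation. Fat is a mixture of cells, and more cells of a methylated type and more methylation per cell cannot be told apart here. Peaks in DNA cannot check the tissue label through marker genes, and the marker windows are given as values only. Of 6 adipocyte genes, 4 were marked in ND, 5 in HFD and 3 in FAD (all genes 64.5, 71.4 and 61.9%). The counts were 2, 4 and 2 of 5 leukocyte genes and 0, 2 and 0 of 4 epididymal epithelium genes.

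Away from their starts, most of the zinc finger genes carried methylated regions. With the gene record and 2000 bp on each side as the window, 88 of 122 genes held a peak in ND (72.1%, interval 63.6 to 79.3%). In HFD 101 did (82.8%, 75.1 to 88.5%), and in FAD 87 (71.3%, 62.7 to 78.6%). Among all protein-coding genes the shares were 64.5% in ND, 71.4% in HFD and 61.9% in FAD. Weighting all genes to the record lengths of the Zfp genes gave 66.4, 74.9 and 63.2%, so the HFD interval of the Zfp genes began just above the weighted share and the other intervals held theirs. The 2737 other protein-coding genes of the same chromosomes had 56.6, 63.9 and 54.1%, and the 245 Zfp genes elsewhere 66.9, 78.0 and 67.8%. On chromosome 7 the shares were 73.3% in ND, 86.7% in HFD and 74.4% in FAD. On chromosome 13 they were 68.8, 71.9 and 62.5%.

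**Figure D1:**
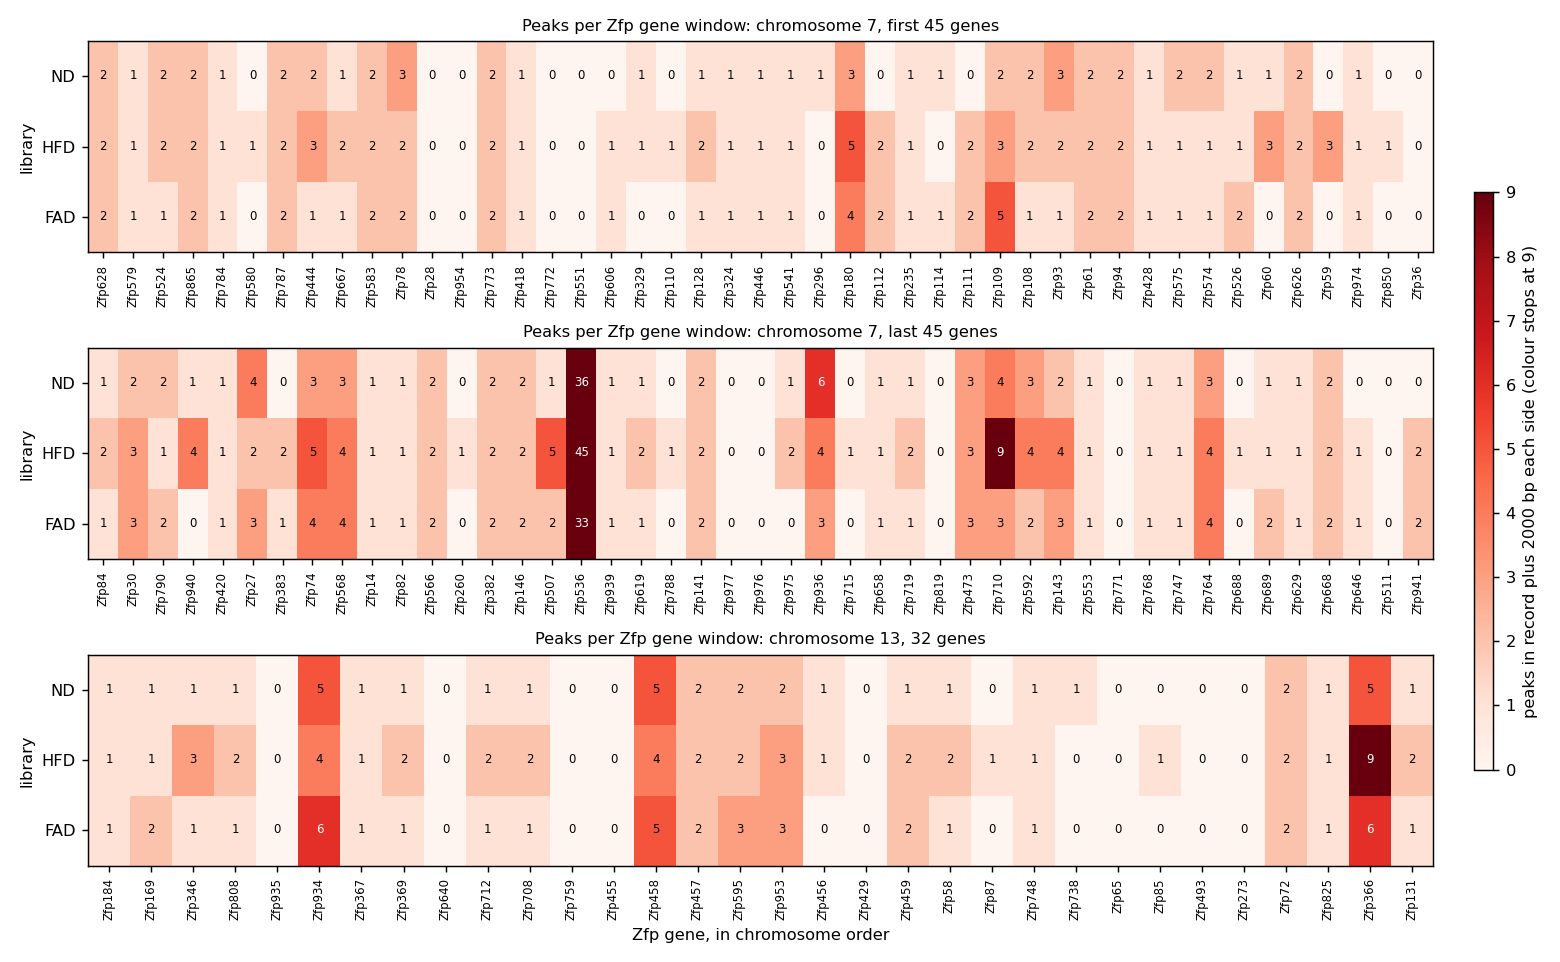
Each column is 1 of the 122 Zfp genes in chromosome order, each row 1 library, and the number and colour give the peaks in the gene record plus 2000 bp on each side (colour stops at 9). Most genes hold 1 or 2 peaks in each library, Zfp536 holds 36, 45 and 33, and runs of genes without peaks stand on both chromosomes.

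The same genes tended to be marked under each diet. In 80 of 122 genes (65.6%, all genes 57.3%) the window held a peak in every library, and in 18 (14.8%, all genes 25.7%) in none. A further 10 genes were marked in HFD only (8.20%, all genes 5.69%) and 6 in HFD and FAD (4.92%, all genes 3.12%). ND and HFD marked 5 (4.10%, all genes 5.26%) and ND only 2 (1.64%, all genes 1.44%). ND and FAD marked 1 (0.820%, all genes 0.484%), and none was marked in FAD only (all genes 0.909%). The 18 unmarked genes were Zfp28, Zfp36, Zfp511, Zfp551, Zfp771, Zfp772, Zfp819, Zfp954, Zfp976 and Zfp977 on chromosome 7 and Zfp65, Zfp273, Zfp429, Zfp455, Zfp493, Zfp640, Zfp759 and Zfp935 on chromosome 13. Chromosome 13 thus had 8 of its 32 genes unmarked (25.0%) and chromosome 7 10 of its 90 (11.1%). Zfp819, a KRAB zinc finger gene of pluripotent cells, and Zfp36 were among them.

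The most peaks lay in the longest record. Zfp536, which encodes a repressor of neuronal differentiation and spans 456017 bp of chromosome 7, held 36 peaks in ND, 45 in HFD and 33 in FAD. Per 10 kb of window these were 0.78, 0.98 and 0.72, within the range of its relatives. Zfp366, which encodes the dendritic cell factor DC-SCRIPT, had 5, 9 and 6 peaks, and Zfp710 had 4, 9 and 3. Zfp936 had 6, 4 and 3, Zfp934 5, 4 and 6, and Zfp458 5, 4 and 5. Zfp180 and Zfp74 each had 3, 5 and 4, Zfp109 2, 3 and 5, and Zfp507 1, 5 and 2. These 10 genes were highest in different libraries: the HFD value led in 6 of them, ND in Zfp936, FAD in Zfp934 and Zfp109, and ND and FAD tied in Zfp458.

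Short records led by density. In ND Zfp524 had 2.75 peaks per 10 kb of window, Zfp575 2.50, Zfp27 2.32, Zfp93 2.17, Zfp773 1.98, Zfp628 1.85, Zfp108 1.71, Zfp574 1.69, Zfp768 1.53 and Zfp146 1.51. These rest on 1 to 4 peaks each. Peak number followed record length less closely across the 122 Zfp genes than across all genes, with a Spearman coefficient of 0.33 in ND, 0.53 in HFD and 0.37 in FAD against 0.69, 0.74 and 0.68. These coefficients are across genes, which share a library and are no replicates. The Zfp records were less spread in length, with 10 of 122 under 5 kb and 7 over 50 kb, against 5034 and 4945 of 21887 genes. Whether this lowers their coefficients was not tested. Among the 10 Zfp genes with records under 5 kb, 7 were marked in ND, 7 in HFD and 6 in FAD. Of all genes of that length, 27.2, 32.7 and 23.9% were. In the 50 genes of 10 to 20 kb, the most frequent length, the shares were 58.0, 78.0 and 60.0%, against 66.3, 76.4 and 63.0%.

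Counted once each, 185 peaks of ND, 247 of HFD and 187 of FAD lay in the Zfp windows. Per 100 kb of merged window this gave 5.83, 7.79 and 5.90 peaks. The windows of all protein-coding genes had 4.48, 6.16 and 4.12, so the ratios were 1.30, 1.26 and 1.43. Fewer of the Zfp records were over 50 kb (7 of 122, all genes 4945 of 21887). Density was not compared at like record length, so these ratios are not corrected for it. Zfp genes elsewhere had 5.16, 7.37 and 5.16 per 100 kb, and without Zfp536 the values of the 121 remaining genes were 5.50, 7.45 and 5.68. Chromosome 7 stood at 6.46, 8.60 and 6.42 and chromosome 13 at 4.20, 5.68 and 4.54. Peaks covered 3.60% of the window bases in ND, 5.53% in HFD and 3.08% in FAD, against 2.42, 3.87 and 1.95% for all genes. Few of the peaks were shared with other genes: 8 in ND, 11 in HFD and 7 in FAD also lay in the window of another protein-coding gene, such as Fiz1 beside Zfp524.

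Zfp genes of better known function were spread over the whole range. Zfp568, a KRAB repressor of the placental Igf2 transcript, had 3 peaks in ND and 4 each in HFD and FAD. Zfp143, an activator of small nuclear RNA and mRNA promoters, had 2, 4 and 3. Its peaks at chr7:110070010-110070414 in ND (score 259.6) and near the record end were found in all 3 libraries. Its HFD and FAD peaks before the start had their nearest ND peak more than 10 kb away, at 10130 and 10188 bp. Zfp346, which encodes a double-stranded RNA-binding protein, had 1, 3 and 1 peaks. Zfp110 and Zfp369, which encode interactors of the neurotrophin receptor p75, had 0, 1, 0 and 1, 2, 1. Zfp260, an activator of cardiac genes, had 0, 1 and 0. Zfp541, a gene of male meiosis, had 1 peak per library in the first of 5 equal parts of its record, with scores of 225, 316 and 325. Joined, these peaks ran from 16061296 to 16062559 on chromosome 7, across the record start at 16061775. The start window of Zfp541 began at 16071595, inside the record, and met no peak. Zfp367 had 1 peak in each library and Zfp131 1, 2 and 1.

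The strongest peaks at these genes were common to the 3 diets. The highest score belonged to 1 region of Zfp629 at chr7:127610744-127612424, with 849.7 in ND, 1417 in HFD and 692 in FAD. Its peaks ranked at percentile 99.7, 99.9 and 99.6 of their own lists. Zfp768, whose record is 2520 bp long, had 1 region of 516, 978 and 609 with peaks of 1651, 1715 and 1368 bp. The last part of Zfp180, close to its 3′ end, held a region at chr7:24104962-24106488 with 479.8, 751 and 526, far from the start peak shown above. Zfp27 had 321, 684 and 364, Zfp324 444, 676 and 394, Zfp575 441, 579 and 645, and Zfp974 436, 558 and 636. Zfp574 had 240.0, 623 and 316, Zfp524 467, 615 and 399, and Zfp764 259.6, 557 and 237. All 20 of the highest-scoring regions were present in all 3 libraries. A lower or higher score between libraries is not read as more or less methylation, since the scale and the depth are unknown.

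**Figure D2:**
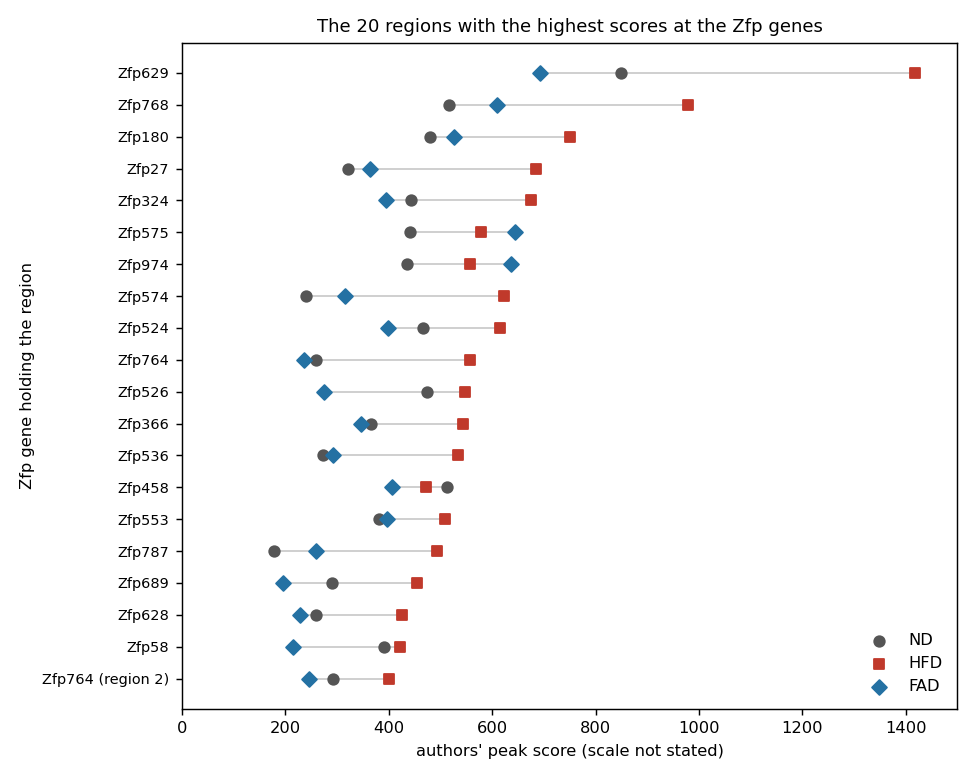
Points give the authors' peak score in ND, HFD and FAD (scale not stated) for the 20 regions with the highest scores at the Zfp genes, and lines join the points of 1 region. Every region has a point from each library, and Zfp629 stands apart at 1417 in HFD.

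Within each list, peaks at the Zfp genes ranked above those of genes in general in ND and HFD and less so in FAD. Their scores had a median percentile of 60.7 in ND, 62.2 in HFD and 52.7 in FAD, against 47.6, 49.5 and 48.3 for all protein-coding gene windows. The highest-scoring 10% of its own list held 23 ND peaks (12.4%), 41 HFD peaks (16.6%) and 21 FAD peaks (11.2%). Over all gene windows it held 7.46, 8.62 and 7.61%. Their median widths were 528, 602 and 453 bp, where all gene windows had 487, 576 and 430.

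Some differences in peak number lay where 1 list divided a region that another did not. At Zfp574, ND had 2 peaks of 967 and 661 bp where HFD had 1 peak of 1600 bp and FAD 1 of 1507 bp. At Zfp575, 2 ND peaks of 1065 and 925 bp lay under a single HFD peak of 2535 bp and a FAD peak of 1832 bp. At Zfp27, ND peaks of 861 and 775 bp and FAD peaks of 735 and 839 bp lay side by side near the record end, where HFD had 1 peak of 2045 bp. The smaller HFD counts of these genes therefore stood beside wider peaks.

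Inside the records, peaks leaned towards the 3′ end, as they did over all genes. The direction of transcription was known for 109 genes, whose records were divided into 5 equal parts by peak midpoint. The last part held 48 of 163 ND peaks (29.4%, interval 23.0 to 36.9%), 56 of 221 HFD peaks (25.3%, 20.1 to 31.5%) and 44 of 165 FAD peaks (26.7%, 20.5 to 33.9%). For all protein-coding genes it held 23.8, 23.1 and 23.7%, inside those intervals, and for Zfp genes elsewhere 20.6, 19.5 and 21.0%. The first part held 11.0, 12.2 and 12.1%, against 14.6, 15.2 and 14.8% over all genes. Without Zfp536, which alone gave 10 of the 48 ND peaks of the last part, the last part held 29.9, 23.9 and 25.0%. In the 82 oriented genes of clusters (defined below) it held 28.0, 20.8 and 23.5%, in HFD and FAD below the shares of all genes. Of the 18 ND peaks within the highest-scoring 10% of the list, 7 lay in the fourth part and 6 in the last. In HFD it was 11 and 9 of 35, and in FAD 5 and 5 of 16. The ND share of the fourth part, 38.9%, had an interval of 20.3 to 61.4%, which holds the 20.4% of all genes.

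In base pairs, the share of Zfp genes with a peak was above that of other genes in the bins from 3000 to 1000 bp before the record end. Among the 96 oriented Zfp genes of 5 to 50 kb, 16 (16.7%, interval 10.5 to 25.4%) had an ND peak in the bin from 2000 to 1500 bp before the end, and the same number in the next bin, 1500 to 1000 bp before it. Among 9276 other genes of that length the shares were 9.31 and 9.56%, and among 173 Zfp genes on other chromosomes 8.67 and 8.09%. In HFD the Zfp genes had 18.8% (interval 12.2 to 27.7%) and 20.8% (13.9 to 30.0%) in these bins, against 13.1 and 13.7%. In FAD they had 15.6% (9.70 to 24.2%) and 12.5% (7.30 to 20.6%), against 8.14 and 8.01%. The other genes thus lay inside the interval of the first HFD bin and of the second FAD bin, and below that of the other bins. The bin with the widest gap differed between libraries: in HFD it was 3000 to 2500 bp before the end (19.8% against 12.0%) and in FAD 2500 to 2000 bp (15.6% against 7.56%). Over the whole last 2500 bp of the record the difference was smaller: 27.1% in ND, 32.3% in HFD and 26.0% in FAD, with intervals of 19.2 to 36.7%, 23.8 to 42.2% and 18.3 to 35.6%. The other genes had 22.2, 29.0 and 19.7%, within those intervals. Over the first 2500 bp the Zfp genes had 8.33, 14.6 and 9.38%, against 11.1, 15.6 and 9.96%. These bins were chosen after the files had been seen, and exon positions were not used here, so no peak is placed in a finger exon.

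**Figure D3:**
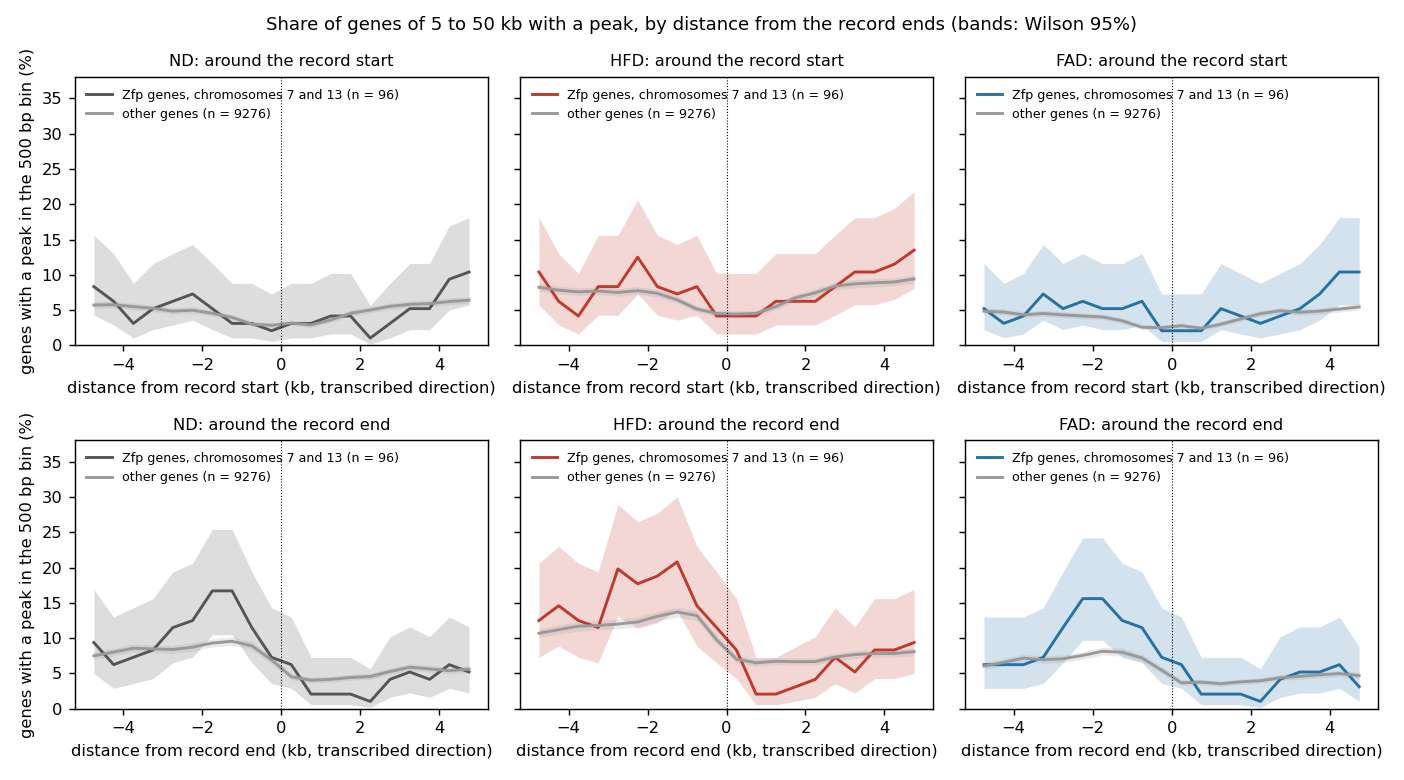
Lines give the share of genes with a peak in each 500 bp bin around the record start (upper row) and the record end (lower row) in ND, HFD and FAD, for the 96 oriented Zfp genes of 5 to 50 kb and 9276 other genes of that length, with Wilson 95% bands. Both groups dip at the start, and the Zfp genes rise to between 12.5 and 20.8% of genes in the bins from 2000 to 1000 bp before the end.

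Most of the genes lay in clusters, and the clusters differed in how densely they were marked. With at least 3 genes and at most 250 kb between neighbours, 91 genes fell into 11 clusters, 10 on chromosome 7 and 1 on chromosome 13, and 31 lay outside such clusters, some of them in close pairs such as Zfp551 and Zfp606. The clustered genes had a peak in 71.4% of windows in ND, 83.5% in HFD and 69.2% in FAD, and the genes outside clusters in 74.2, 80.6 and 77.4%, with overlapping intervals. The chromosome 13 cluster (13-A in the plot of clusters), of 19 genes over 788 kb, had 3.72 peaks per 100 kb inside the Zfp records in ND, 4.79 in HFD and 3.99 in FAD. Between the records of that cluster the density was higher in each library, at 6.30, 7.76 and 5.58. Rsl1, a KRAB zinc finger gene that represses male-specific liver genes and whose symbol keeps it out of the count, lies within it and had 1 peak in each library. Zfp458 gave the strongest peaks of this cluster, with 513, 472 and 406 in the last part of its record.

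On chromosome 7 the first cluster (7-A), with Zfp628, Zfp579, Zfp524, Zfp865, Zfp784 and Zfp580 over 139 kb, was the densest inside its records in every library, at 15.42, 17.62 and 15.42 per 100 kb from 7, 8 and 7 peaks. Cluster 7-J, with Zfp629, Zfp768 and 8 others over 653 kb, had 10.52, 13.67 and 13.67. The largest cluster of this chromosome, 7-G with 15 genes that include Zfp568, Zfp27 and Zfp260, had 8.97, 10.91 and 9.75, and at least 1 peak in 13, 15 and 13 of its genes. Cluster 7-E around Zfp180, with 12 genes, had 8.21, 11.37 and 10.74. Cluster 7-H, with Zfp141, Zfp975, Zfp976 and Zfp977, was the sparsest inside its records, at 0.88, 1.77 and 0.88 from 1, 2 and 1 peaks. Between its records the density was 8.46, 6.58 and 6.58 per 100 kb. Cluster 7-C was also sparser inside, with 3.03 from 1 peak in each library against 9.62, 11.23 and 11.23 between. Peaks were placed inside or between records by midpoint. A region across the edge of the Zfp773 record in 7-C (scores 206, 288 and 172) thus counted as between. So did an ND and an HFD peak across the edge of Zfp975 in 7-H. The records of 7-A, 7-G and 7-J had the higher density in all 3 libraries and those of 13-A, 7-C and 7-H the lower, so no single order of records and gaps held for the clusters.

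**Figure D4:**
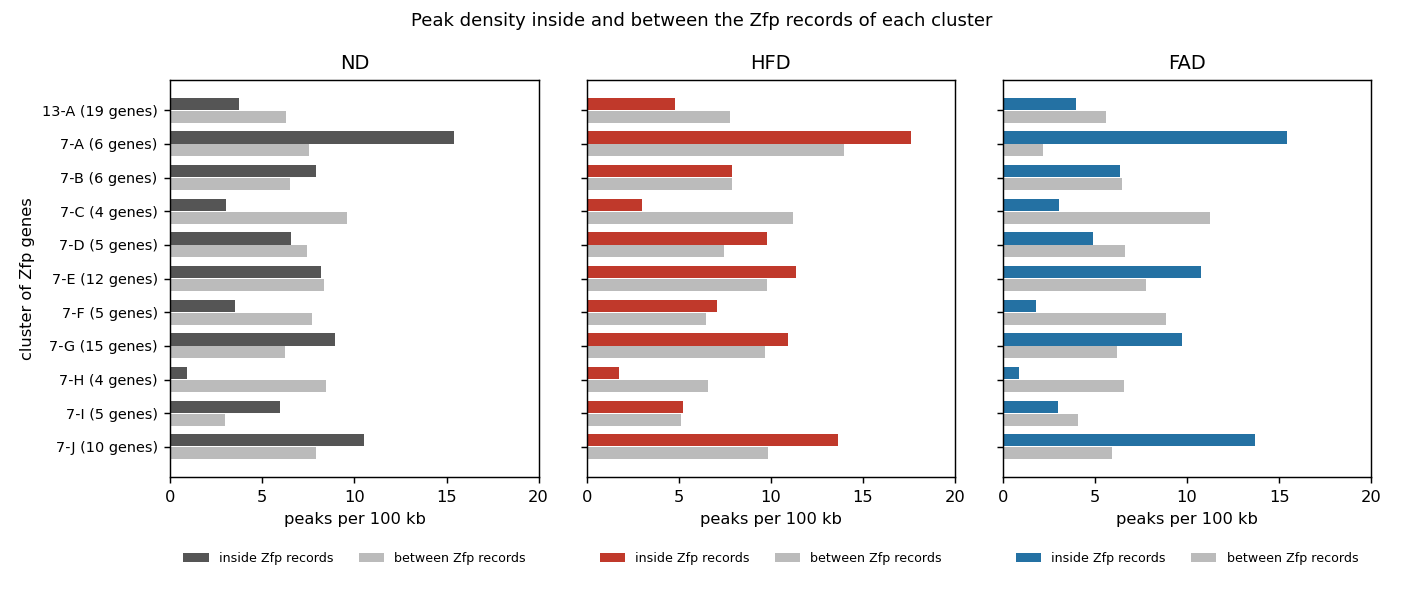
Bars give peaks per 100 kb inside the Zfp records (coloured) and between them (grey) for each of the 11 clusters in ND, HFD and FAD, with the number of Zfp genes in brackets. Cluster 7-A has the longest coloured bar in each library and 7-H the shortest.

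The first comparison, HFD with ND, asks how the methylated regions differ with dietary fat. HFD had more peaks at the Zfp genes in the same proportion as in its whole list: 247 against 185, a ratio of 1.34, where the lists had 1.33 and all gene windows 1.38. Peak number was higher in HFD in 46 genes, lower in 12 and equal in 64. Among all genes it was higher in 41.6% and lower in 7.79%. The widest gains were at Zfp536 (36 to 45 peaks), Zfp710 (4 to 9), Zfp366 (5 to 9), Zfp507 (1 to 5), Zfp940 (1 to 4) and Zfp59 (0 to 3). Zfp936 (6 to 4) and Zfp27 (4 to 2) had the largest losses.

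The window held a peak in HFD and none in ND at 16 Zfp genes (13.1%, interval 8.24 to 20.2%). Among all genes 8.81% were called in this way, inside the interval. Ranked by HFD score, the first 8 were Zfp112 (157), Zfp606 (145), Zfp646 (144), Zfp383 (139), Zfp850 (127), Zfp941 (127), Zfp688 (113) and Zfp59 (91.8). The Zfp606 peak at chr7:12493913-12494250 lay in the last part of the record and 32093 bp from the nearest ND peak, and FAD had a peak there too (score 131). The Zfp646 peak was 1069 bp wide and 11557 bp from the nearest ND peak. Zfp112, Zfp383 and Zfp941 also had FAD peaks, whereas Zfp850, Zfp688 and Zfp59 had none. At 10 of the 16 no ND peak lay within 5000 bp of the window either, which is 8.20% of the 122 Zfp genes against 5.35% of all genes. The reverse, ND and not HFD, held at 3 genes (2.46%, background 1.93%): Zfp296 (score 111), a gene of pluripotent cells, Zfp738 (79.7) and Zfp114 (75.5). Zfp114 alone had no HFD peak within 5000 bp of the window, 0.820% of the Zfp genes against 0.964% of all genes.

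With lists cut to equal length, these counts drew closer to each other. Then 13 Zfp genes had a peak in HFD and not ND (10.7%, all genes 5.71%) and 7 in ND and not HFD (5.74%, all genes 4.40%). For HFD and not ND, no flank gave 17 (13.9%, all genes 8.28%) and 5000 bp flanks 13 (10.7%, all genes 8.23%). The higher-scoring 50% of each list gave 19 (15.6%, all genes 11.0%). No interval was computed for these shares. That the share of all genes lay inside the interval is therefore stated only for full lists with 2000 bp flanks.

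The second comparison, FAD with HFD, asks how the regions differ with folic acid on a high-fat diet. FAD had 187 peaks at the Zfp genes to 247 in HFD, a ratio of 0.757, where the lists had 0.707 and all gene windows 0.668. Peak number was lower in FAD in 41 genes, higher in 10 and equal in 71. Among all genes it was lower in 45.9% and higher in 6.02%. The largest falls in peak number were at Zfp536 (45 to 33), Zfp710 (9 to 3), Zfp940 (4 to 0), Zfp366 (9 to 6), Zfp507 (5 to 2), Zfp59 (3 to 0) and Zfp60 (3 to 0). Zfp109 (3 to 5) and Zfp934 (4 to 6) had the largest increases. The FAD peaks of Zfp109 lay in the same 3 regions as its HFD peaks, since 3 FAD peaks stood where HFD had a single one. At Zfp934 FAD added a region with a score of 77.4 and shared another with ND only.

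A peak in HFD and none in FAD was found at 15 Zfp genes (12.3%, background 10.9%). The first 8 by HFD score were Zfp456 (164), Zfp940 (151), Zfp60 (150.4), Zfp850 (127), Zfp975 (121), Zfp688 (113), Zfp59 (91.8) and Zfp260 (87.3). Zfp940 had 4 HFD peaks and no FAD peak in its window, although a FAD peak lay 1435 bp outside it. The Zfp456 peak lay before the start, was present in ND as well (score 125), and was 21767 bp from the nearest FAD peak. At 8 of them no FAD peak lay within 5000 bp of the window either, which is 6.56% of the 122 Zfp genes against 6.92% of all genes. FAD and not HFD was found at Zfp114 alone (0.820%, background 1.39%), where the FAD score was 87.7 and the ND peak overlapped it (75.5). No HFD peak lay within 5000 bp of its window (background 0.726%).

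In the third comparison, FAD with ND, the Zfp genes had 187 and 185 peaks, a ratio of 1.01, where the lists had 0.941 and all gene windows 0.919. Peak number was higher in FAD in 22 genes, lower in 19 and equal in 81. Among all genes it was higher in 16.6% and lower in 26.4%. Zfp109 had the largest increase in peak number, from 2 to 5, of which 3 lay within 1 region that ND also marked with 1 peak. At Zfp111, Zfp112 and Zfp941 the number went from 0 to 2. Zfp536 (36 to 33) and Zfp936 (6 to 3) lost the most. FAD and not ND was found at 6 genes (4.92%, background 4.03%): Zfp606 (131), Zfp646 (111), Zfp383 (109), Zfp112 (100.3), Zfp941 (68.5) and Zfp111 (68.1). At Zfp606, Zfp646 and Zfp111 no ND peak lay within 5000 bp of the window either, which is 2.46% of the 122 Zfp genes against 2.43% of all genes. ND and not FAD was found at 7 (5.74%, background 6.70%): Zfp940 (127), Zfp456 (125), Zfp296 (111), Zfp329 (94.3), Zfp738 (79.7), Zfp60 (69.1) and Zfp975 (59.5). Zfp456 alone had no FAD peak within 5000 bp of the window, 0.820% of the Zfp genes against 4.03% of all genes. Each library enters a pair of these comparisons, so their calls are not independent of each other.

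**Figure D5:**
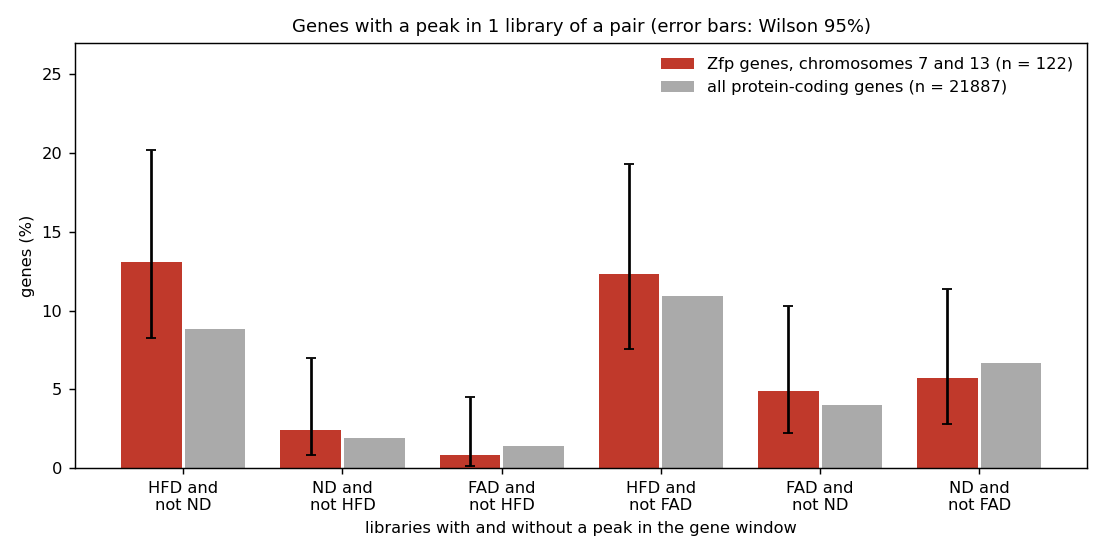
Bars give the share of genes with a peak in 1 library of a pair and none in the other, for the 122 Zfp genes (red, Wilson 95% bars) and all protein-coding genes (grey). Each grey bar ends inside the interval of the red bar beside it, for example 8.81% against 8.24 to 20.2% for HFD and not ND.

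Region by region, those seen in a single list had low scores, as they did over all genes. Overlapping peaks of the 3 lists joined into 287 regions at the Zfp genes, of which 130 (45.3%, all genes 39.0%) were present in every library, with a median highest score of 215. HFD alone gave 64 regions (22.3%, all genes 24.7%) with a median of 74.3 (all genes 68.4) and none above 127. ND alone gave 18 (6.27%, all genes 7.47%) and FAD alone 17 (5.92%, all genes 5.82%). Their medians were 63.2 and 68.1, where all genes had 64.5 in each case. ND peaks overlapped an HFD peak in 87.6% and FAD peaks in 87.7% of cases, while HFD peaks overlapped an ND peak in 64.0% and a FAD peak in 63.2%. Over all gene windows the corresponding shares were 84.5, 86.0, 60.7 and 56.5%.

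Genes that work with KRAB zinc finger proteins were described from a list of 21, of which 17 were marked in ND, 19 in HFD and 17 in FAD. Of all genes, as above, 64.5, 71.4 and 61.9% were. These shares were not weighted to the listed records, which ran from 6881 to 112885 bp and were mostly over 20 kb. Of all genes of 20 to 50 kb, 79.2, 86.2 and 76.0% were marked. Trim28, the corepressor itself, lies on chromosome 7 and had no peak in its window in any library. Zfp809, a KRAB protein that silences murine leukaemia virus sequences, had none either. Setdb1, which methylates H3K9, had 1, 2 and 2 peaks. From this list, 2 genes had a peak in HFD and not ND (background 8.81%) and 2 in HFD and not FAD (10.9%), and none in the reverse directions (1.93 and 1.39%).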

How the data were processed

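MeDIP-seq of epididymal fat gave a single library for each diet, and the labels gave the groups. The deposited files are lists of peaks that the authors called library by library. Their build is mm10, per the submitters' processing notes. Each peak carries a score given by the authors, whose scale is not stated, so scores were used only to rank and filter within a list. The sources used here give no caller settings, aligner, read depth or treatment of duplicates.

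Gene records came from a RefSeq table of GRCm38.p6, the assembly of mm10, and starts, strand and promoter bases from its promoter table. That table matched 109 of the 122 genes, and the other 13 entered no oriented value. Exons, proteins and a genome were not used here. A peak was counted where it overlapped the record plus 2000 bp on each side by at least 1 bp. Within the clusters, peaks were placed inside or between records by midpoint. Code was tested on simulated peaks, with the right count in 14211 of 14211 windows, and gave the same count as bedtools for 21887 windows in each list. Intervals are Wilson 95%. No test was run.

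The genes and lists were chosen with earlier results of these data known. Named genes are the 10 with most peaks, the 10 densest in ND, those without peaks, up to 8 per pair and direction by score, the largest differences in number per pair, the 10 highest scores, and 12 of known role. Beyond the rule, all unmarked genes are named. The distance bins, the 2500 bp windows, the scores by part of the record, the overlap of regions and the motif ACTACAATTCC were added after the files had been seen. The bins were first run on all record lengths, where the Zfp shares near the record end were larger, and were then restricted to 5 to 50 kb. Alternatives were the higher-scoring 50% of each list, lists cut to 95501 peaks, no flank or 5000 bp, peak midpoints, peaks joined within 500 bp, covered bases, clustered genes, starts with 1000 bp on each side, and absence within 5000 bp. Leaving out Zfp536 was chosen after seeing the data. Tools were bedtools 2.31.1, Python 3.11.15, matplotlib 3.10.9, scipy 1.17.1, pandas 2.3.3 and numpy 2.4.6.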

Additional observations from a re-analysis of the deposited data

How the results depend on the processing

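Of 111 alternative values over 21 results, 89 stayed within counting error or within 1.5 times the count and 22 moved. A change of direction was not scored. Relative to all gene windows, the FAD to ND ratio of peak number was 1.10, but 0.942 with the higher-scoring 50% of each list. The HFD to ND ratio was 0.969, but 1.02 with equal-length lists. In their other settings both ratios stayed on the same side of 1. With the higher-scoring 50% of each list, the share of Zfp genes with a peak was 54.1% in ND, 68.0% in HFD and 52.5% in FAD, and with 5000 bp flanks it was 79.5% in FAD. With those lists, peak density relative to all genes was 1.62 in ND and 1.51 in HFD. By peak midpoint the share of genes with a start peak was 0 of 109 in ND, HFD and FAD, which allows up to 2.75%, and with 1000 bp on each side it was 11.0% in HFD and 6.42% in FAD. For genes marked in 1 library of a pair, the setting with no other peak within 5000 bp left fewer genes. There were 10 for HFD and not ND (8.20%, all genes 5.35%) and 1 for ND and not HFD (0.820%, all genes 0.964%). HFD and not FAD kept 8 (6.56%, all genes 6.92%). FAD and not ND kept 3 (2.46%, all genes 2.43%) and ND and not FAD 1 (0.820%, all genes 4.03%). Equal-length lists gave 7 for ND and not HFD (5.74%, all genes 4.40%) and 4 for FAD and not HFD (3.28%, all genes 3.75%). The higher-scoring 50% gave 2 for FAD and not HFD (1.64%, all genes 1.89%) and 10 for FAD and not ND (8.20%, all genes 4.79%). It gave 12 for ND and not FAD (9.84%, all genes 7.14%), where 5000 bp flanks gave 3 (2.46%, all genes 6.76%). Leaving out Zfp536, an alternative chosen after seeing the data, moved none of the results it was run on. No paired analysis was possible because each diet has 1 library. Depth is unknown, so weak peaks found in 1 list only cannot be told apart from regions just under the threshold in the others.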
